A study of Mus musculus with 3 samples.

Results

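The messenger RNA levels of 10 genes of the endothelin and nitric oxide pathways were read in the left ventricle of the mouse heart. The genes were chosen by name, with earlier results of these data known. They are Edn1, Ece1, Ece2, Ednra and Ednrb of the endothelin pathway, and Nos3, Cav1, Ddah1, Gucy1a3 and Gucy1b3 of the nitric oxide pathway. All 10 were found among the 15503 genes listed in the deposited tables, and all 10 passed the filter on low values in every comparison. The study compared C57BL6J mice of 3 genotypes, with RNA of 3 mice pooled into 1 library per genotype, and its title concerns loss of endothelial PHD2, hypertrophy and fibrosis of the heart. The Egln1Tie2Cre library came from mice in which Cre recombinase, driven by the Tie2 promoter, deletes Egln1, the gene of the oxygen-sensing prolyl hydroxylase PHD2. The library labelled Egln1/Hif2aTie2Cre came from mice labelled as deleted for Egln1 and for Hif2a, the hypoxia-inducible factor subunit encoded by Epas1, with the same Cre, and is called Egln1/Hif2aTie2Cre below after that label alone. The control library came from mice that the sample labels call Egln1 floxed and that the study's design text calls wild type. Tie2 drives expression in the endothelium and in blood-forming cells, so the deletion is not limited to vessels. The age and sex of the mice are not given in the labels. Values are FPKM, the number of fragments scaled to transcript length and to the total of mapped fragments, so levels of different genes are compared per length. Each genotype has 1 library, so the differences below have no replicate error and are described without a test.

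Endothelin-1 is a strong vasoconstrictor peptide made mainly by endothelial cells, released from a precursor by converting enzymes and sensed by a pair of G protein-coupled receptors. Nitric oxide is its functional opponent: the endothelial synthase makes it from arginine, and in neighbouring smooth muscle it activates soluble guanylate cyclase, whose product cGMP relaxes the vessel. In the heart both systems set coronary tone, and endothelin also acts on cardiomyocytes, while hypoxia and hypoxia-inducible factors are known to act on genes of both.

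The targeted genes and the makeup of the tissue were read first. Egln1 was at 95.7 FPKM in the Egln1Tie2Cre library and 129.0 FPKM in the library labelled Egln1/Hif2aTie2Cre, against 129.5 FPKM in the floxed library. The Egln1 level of the second library thus does not bear out that part of its label. It cannot refute the label either, since bulk ventricle also holds RNA of cells without Cre and each genotype has 1 library. Epas1 was at 65.0 and 54.5 FPKM in the same libraries, against 77.4 FPKM in the floxed library. All 15 endothelial markers were present in every library. Their median log2 ratio of FPKM + 1 over floxed was 0.30 in Egln1Tie2Cre and 0.09 in Egln1/Hif2aTie2Cre. Their levels summed to 653 FPKM in Egln1Tie2Cre, 641 FPKM in Egln1/Hif2aTie2Cre and 536 FPKM in floxed. The sums of 11 smooth muscle and pericyte markers were 270.1, 338 and 330.2 FPKM in that order, and those of 10 macrophage markers were 114, 197 and 151 FPKM. Of 7 cardiomyocyte markers with a value in all libraries the sums were 48029.6, 43913 and 40594.5 FPKM, and without Myl2, a ventricular myosin light chain, they were 28147, 28702 and 29603 FPKM. The 6 atrial markers summed to 2005.5 FPKM in Egln1Tie2Cre and 364 FPKM in Egln1/Hif2aTie2Cre, against 231 FPKM in floxed. Most of that was Nppa, the atrial natriuretic peptide gene, and the 5 others summed to 148, 108 and 70.9 FPKM. The 5 epicardial and mesothelial markers with a value summed to 25.3, 3.73 and 3.36 FPKM in that order. Without Krt19 and Wt1 the other 3 summed to 1.39, 1.96 and 0.887 FPKM, so the Egln1Tie2Cre library was not the high one for this sum. Krt8 among them was highest in Egln1Tie2Cre, and Upk3b and Tbx18 were highest in Egln1/Hif2aTie2Cre. In bulk tissue, fewer cells of a type and less RNA per cell cannot be told apart.

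A gene was called higher or lower when its FPKM + 1 differed at least 1.5-fold between 2 libraries, a log2 ratio of 0.58 or more in either direction, where the gene's FPKM averaged at least 1 over both libraries. In Egln1Tie2Cre over floxed, Nos3 rose and Ece2 fell. That is 1 of the 10 genes in each direction, against 9.46% of 11978 genes called higher and 8.73% called lower. In Egln1/Hif2aTie2Cre over floxed, 0 of the 10 genes were called in either direction, against 4.42% of 11888 genes called higher and 3.28% called lower. In Egln1/Hif2aTie2Cre over Egln1Tie2Cre, Ece2 and Cav1 rose and Nos3 fell. Those are 2 and 1 of the 10 genes, against 9.67% of 11999 genes called higher and 9.64% called lower. The median log2 ratios of the 10 genes were 0.06, 0.07 and 0.09 in the 3 comparisons, beside 0.02, -0.00 and -0.02 for all genes kept. The counts are thus within about a gene of what the share of all genes gives for a list of 10, and the medians lie near 0. The first and second comparisons share the floxed library, and each other pair of comparisons shares a library as well. In the authors' deposited table the q-value was 0.9996 for each of the 10 genes in every comparison, and that q-value compares 2 libraries rather than genotypes.

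**Figure D1:**
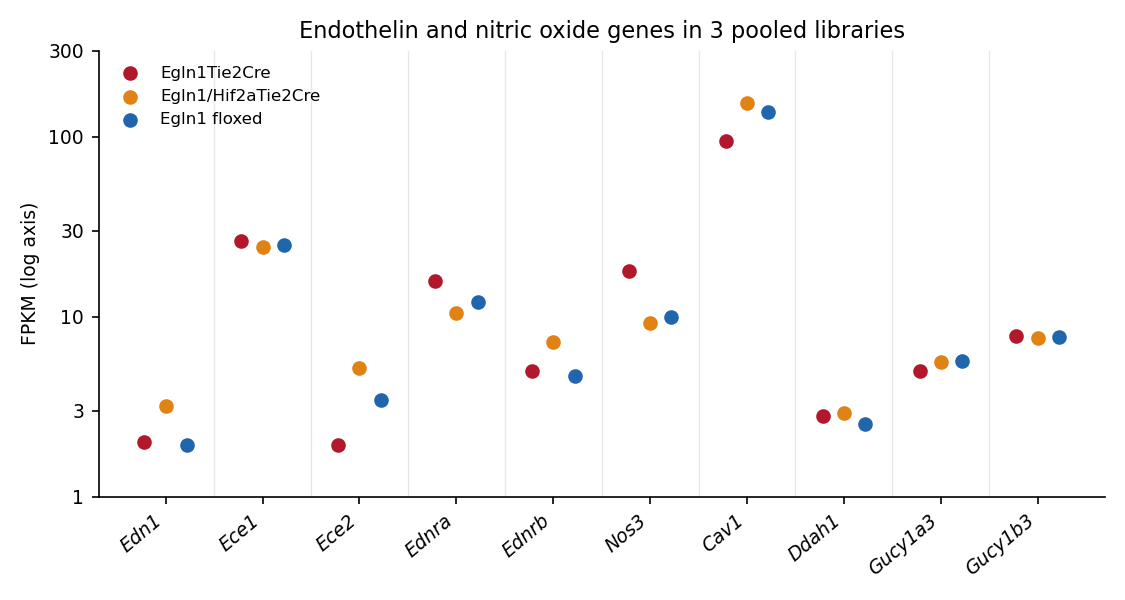
FPKM (log axis) of the 10 genes in the Egln1Tie2Cre, Egln1/Hif2aTie2Cre and Egln1 floxed libraries, 1 point per pooled library. Nos3 is at 18.0 FPKM in Egln1Tie2Cre and at 9.26 FPKM in Egln1/Hif2aTie2Cre and 10.001 FPKM in floxed, Cav1 and Ece2 are lowest in Egln1Tie2Cre, and Ece1, Ddah1 and both guanylate cyclase genes lie close together in all 3.

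The genes spanned a wide range of levels, from 1.93 FPKM for Edn1 in floxed to 153 FPKM for Cav1 in Egln1/Hif2aTie2Cre. Cav1 was the highest of the 10 in every library. Of the genes with a value in every library, it stood above 95.3% in Egln1Tie2Cre, 96.7% in Egln1/Hif2aTie2Cre and 96.8% in floxed. Ece1 came next in every library. Nos3 held the next place in Egln1Tie2Cre, with Ednra behind it, while in both other libraries Ednra stood above Nos3. The lowest gene was Ece2 in Egln1Tie2Cre, Ddah1 in Egln1/Hif2aTie2Cre and Edn1 in floxed. Close neighbours in these orders, such as Ednrb at 5.02 FPKM and Gucy1a3 at 5.02 FPKM in Egln1Tie2Cre, cannot be ranked, since no library has a replicate. Across libraries, 4 genes were highest in Egln1Tie2Cre (Ece1, Ednra, Nos3 and Gucy1b3), and these same 4 were lowest in Egln1/Hif2aTie2Cre. Edn1, Ece2, Ednrb, Cav1 and Ddah1 were highest in Egln1/Hif2aTie2Cre, and Gucy1a3 was highest in floxed. Several of these orders rest on near-equal levels and cannot be read without replicates. Ece1 was at 26.3, 24.5 and 24.9 FPKM in Egln1Tie2Cre, Egln1/Hif2aTie2Cre and floxed, and Gucy1b3 at 7.76, 7.62 and 7.68 FPKM. Gucy1a3 was at 5.60 FPKM in Egln1/Hif2aTie2Cre and 5.64 FPKM in floxed. The share of all genes with each order was not computed.

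The stretches just before the gene start are shown for Edn1, the ligand gene, and for Ece2 and Cav1, the genes called higher in Egln1/Hif2aTie2Cre over Egln1Tie2Cre. The sequences are from RefSeq (GRCm38.p6), given 5′ to 3′ on the plus strand, and each ends before the first annotated transcript start, which leaves 250, 227 and 250 bases. Of the 10 genes, 9 (all but Nos3) matched the RefSeq promoter table. Capitals mark the core of the hypoxia response element, searched as ACGTG and GCGTG on both strands (CACGT and CACGC on the plus strand), the letters to which hypoxia-inducible factors are known to bind.
Edn1, chr13:42301226-42301475: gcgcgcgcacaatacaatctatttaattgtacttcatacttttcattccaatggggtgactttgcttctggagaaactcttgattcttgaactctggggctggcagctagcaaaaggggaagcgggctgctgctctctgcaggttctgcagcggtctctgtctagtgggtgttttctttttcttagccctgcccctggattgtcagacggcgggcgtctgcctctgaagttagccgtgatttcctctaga
Ece2, chr16:20629601-20629827: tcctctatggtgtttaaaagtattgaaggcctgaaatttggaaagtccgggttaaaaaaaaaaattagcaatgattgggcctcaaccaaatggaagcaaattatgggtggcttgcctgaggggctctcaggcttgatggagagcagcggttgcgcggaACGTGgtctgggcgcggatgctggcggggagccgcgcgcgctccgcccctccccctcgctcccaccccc
Cav1, chr6:17306085-17306334: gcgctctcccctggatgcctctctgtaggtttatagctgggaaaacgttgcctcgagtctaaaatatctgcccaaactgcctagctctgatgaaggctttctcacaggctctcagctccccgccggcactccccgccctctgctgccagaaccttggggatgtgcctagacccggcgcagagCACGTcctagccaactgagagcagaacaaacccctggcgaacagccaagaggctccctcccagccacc
The core occurred in the Ece2 stretch, 92 bases before the RefSeq start, and in the Cav1 stretch, 68 bases before the start. The Edn1 stretch held 0 matches. Bases beyond each stretch shown, among them those after the first annotated start, were not searched. The 0 for Edn1 thus does not cover the rest of its promoter. Such a match is common: 38.6% of 32851 mouse promoter windows of 250 bases held at least 1. It describes these letters only and shows no binding.

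The peptide gene Edn1 (ENSMUSG00000021367, GRCm38 chromosome 13, 42301476 to 42307990, plus strand), which encodes endothelin-1, was a low transcript. Its level was 2.02 FPKM in Egln1Tie2Cre and 3.20 FPKM in Egln1/Hif2aTie2Cre, against 1.93 FPKM in floxed. The Egln1Tie2Cre and floxed libraries were within 1.05-fold of each other, while the library labelled Egln1/Hif2aTie2Cre was the high one. Its log2 ratio of FPKM + 1 was 0.52 over floxed and 0.48 over Egln1Tie2Cre, both short of the call, although the plain FPKM ratios were 1.66-fold and 1.59-fold. The difference between these scales comes from the added 1, which weighs most at such low levels.

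Of the converting enzymes, Ece1 (ENSMUSG00000057530, chromosome 4, 137862237 to 137965229, plus strand), the main protease that cuts the precursor to active endothelin-1, was level across the libraries. It was at 26.3 FPKM in Egln1Tie2Cre and 24.5 FPKM in Egln1/Hif2aTie2Cre, against 24.9 FPKM in floxed, with log2 ratios of 0.08 and -0.02 over floxed. Ece2 (ENSMUSG00000022842, chromosome 16, 20629828 to 20646485, plus strand) encodes a related endothelin-converting enzyme. Its level was 1.94 FPKM in Egln1Tie2Cre and 5.19 FPKM in Egln1/Hif2aTie2Cre, against 3.46 FPKM in floxed. Ece2 thus fell in Egln1Tie2Cre (1.78-fold lower than floxed, log2 ratio -0.60), just past the call. In Egln1/Hif2aTie2Cre it was 1.502-fold above floxed without a call (log2 ratio 0.47) and rose 2.68-fold over Egln1Tie2Cre (log2 ratio 1.08). In the GENCODE M21 annotation, 55.8% of the 31-base words in Ece2 transcripts also occur in other genes, nearly all of them in Gm49333, a gene model on the same strand that spans Ece2. Its value is therefore uncertain, because the authors' counting could split reads between the models if their annotation held both. No gene was listed by the authors under the name Gm49333, so whether it did is unknown. Within each library the level of Ece1 was 13.6 times that of Ece2 in Egln1Tie2Cre and 4.72 times in Egln1/Hif2aTie2Cre, against 7.19 times in floxed. By the pair of log2 ratios over floxed, the listed genes nearest to Ece2 were the macrophage complement gene C1qa, at a distance of 0.06, and Rgs4, at 0.07, among 148 genes searched.

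The other peptide and processing genes were few. Of 8 listed, 5 had a value, and the authors listed no gene under the names Edn2, Ecel1 or Kel. Edn3, which encodes another endothelin peptide, was at 2.53 FPKM in Egln1Tie2Cre and 0.407 FPKM in Egln1/Hif2aTie2Cre, against 0.268 FPKM in floxed. It was the only one of these genes called higher in Egln1Tie2Cre over floxed (log2 ratio 1.48), and it fell in Egln1/Hif2aTie2Cre over Egln1Tie2Cre (log2 ratio -1.33). The high library for Edn3 was also the high one for 3 of the 5 measured epicardial and mesothelial markers, Wt1 (10.2, 1.60 and 2.25 FPKM in the same order), Krt19 (13.7, 0.169 and 0.218 FPKM) and Krt8 (0.430, 0.109 and 0.109 FPKM). It was the low one for Upk3b (0.0429, 0.538 and 0.122 FPKM), and Tbx18 was highest in Egln1/Hif2aTie2Cre (0.913, 1.31 and 0.657 FPKM). The part of these markers in the Edn3 difference was not tested. Mme, which encodes neprilysin, a protease that degrades endothelin and natriuretic peptides, was at 0.466 and 1.12 FPKM, against 2.10 FPKM in floxed, and fell in Egln1Tie2Cre over floxed (log2 ratio -1.08). Furin, a protease that processes the endothelin precursor, differed by 0.01 and -0.41 in log2 ratio over floxed, neither of them called.

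**Figure D2:**
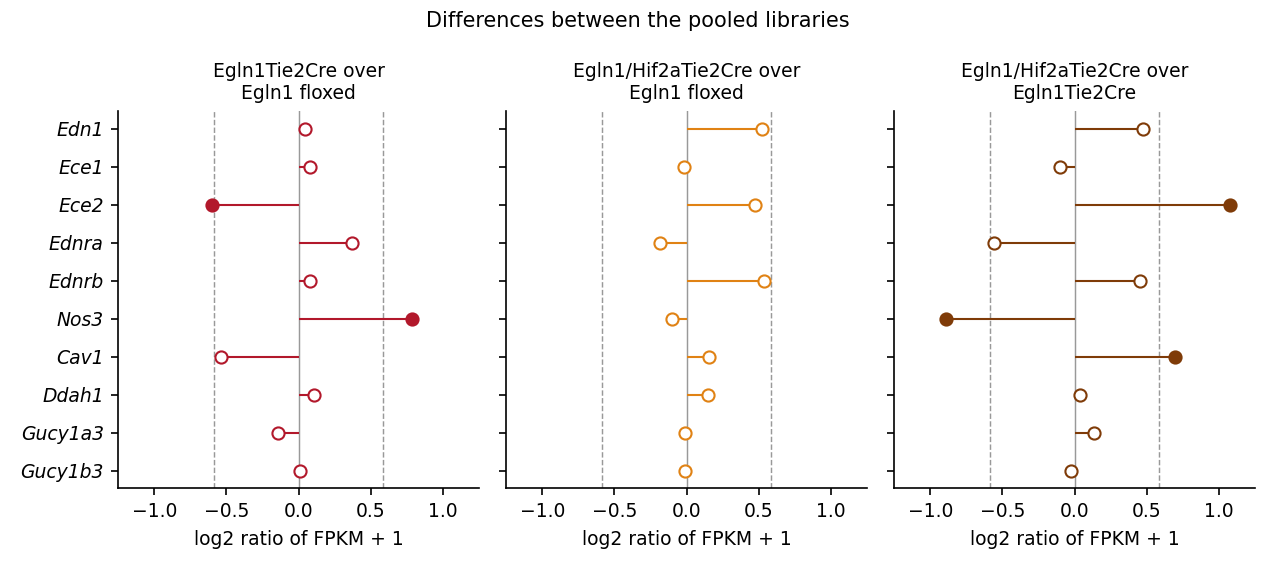
Log2 ratio of FPKM + 1 of the 10 genes in each comparison, with dashed lines at the 1.5-fold call, filled points past it and open points within it. Nos3 and Ece2 are past the call in Egln1Tie2Cre over floxed, no gene is past it in Egln1/Hif2aTie2Cre over floxed, and Ece2, Nos3 and Cav1 are past it in Egln1/Hif2aTie2Cre over Egln1Tie2Cre.

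Neither receptor gene passed the call in any comparison. Ednra (ENSMUSG00000031616, chromosome 8, 77663031 to 77724464, minus strand), the type A receptor of smooth muscle and cardiomyocytes, which mediates constriction, was at 15.8 FPKM in Egln1Tie2Cre and 10.4 FPKM in Egln1/Hif2aTie2Cre, against 12.0 FPKM in floxed. It was highest in Egln1Tie2Cre, with log2 ratios of 0.37 and -0.18 over floxed. Between Egln1/Hif2aTie2Cre and Egln1Tie2Cre the log2 ratio was -0.56, 1.51-fold in plain FPKM, just short of the call. Ednrb (ENSMUSG00000022122, chromosome 14, 103814625 to 103844402, minus strand), the type B receptor, which in endothelial cells clears endothelin and triggers nitric oxide release, was at 5.02 FPKM in Egln1Tie2Cre and 7.24 FPKM in Egln1/Hif2aTie2Cre, against 4.69 FPKM in floxed. It was highest in the library labelled Egln1/Hif2aTie2Cre, with log2 ratios of 0.53 over floxed and 0.45 over Egln1Tie2Cre, and of 0.08 in Egln1Tie2Cre over floxed. The ratio of Ednra to Ednrb within a library was 3.15 in Egln1Tie2Cre and 1.44 in Egln1/Hif2aTie2Cre, against 2.56 in floxed. The summed smooth muscle and pericyte markers were lowest in Egln1Tie2Cre, where Ednra was highest. The cardiomyocyte markers had 3 of 7 log2 ratios above 0 in Egln1Tie2Cre over floxed, with a median of -0.01. Their part in the receptor levels was not tested.

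Of 19 genes listed for signalling from the endothelin receptors, 3 rose and 2 fell in Egln1Tie2Cre over floxed, with a list median log2 ratio of 0.17. Over floxed, the library labelled Egln1/Hif2aTie2Cre had 0 genes that rose and 1 that fell, with a median of -0.11. Over Egln1Tie2Cre it had 1 that rose and 4 that fell, with a median of -0.29. The shares of all genes called higher and lower were 9.46% and 8.73% in Egln1Tie2Cre over floxed. They were 4.42% and 3.28% in Egln1/Hif2aTie2Cre over floxed, and 9.67% and 9.64% in Egln1/Hif2aTie2Cre over Egln1Tie2Cre. These shares stand beside the counts of each list below as well. Rgs2, which switches off Gq proteins coupled to the type A receptor, was at 20.96 FPKM in Egln1Tie2Cre and 12.9 FPKM in Egln1/Hif2aTie2Cre, against 10.2 FPKM in floxed. It rose in Egln1Tie2Cre over floxed (log2 ratio 0.97) and fell in Egln1/Hif2aTie2Cre over Egln1Tie2Cre (log2 ratio -0.66). Its relative Rgs4 ran the other way, with 4.21 and 10.7 FPKM against 7.28 FPKM in floxed, and log2 ratios of -0.67 in Egln1Tie2Cre over floxed and 1.17 in Egln1/Hif2aTie2Cre over Egln1Tie2Cre. Both genes encode brakes on the same class of G protein. Arrb1, a beta-arrestin that ends receptor signalling, was at 19.4 and 7.25 FPKM against 10.3 FPKM in floxed, and likewise rose in Egln1Tie2Cre over floxed (log2 ratio 0.85) and fell in Egln1/Hif2aTie2Cre over Egln1Tie2Cre (log2 ratio -1.31). Adrbk1, a kinase that marks activated receptors for arrestin, was at 36.7 and 30.6 FPKM against 21.4 FPKM in floxed and rose in Egln1Tie2Cre (log2 ratio 0.75). Gna12, a G protein alpha subunit, was at 33.3 and 43.9 FPKM against 50.7 FPKM in floxed. It fell in Egln1Tie2Cre over floxed (log2 ratio -0.59), just past the call. Gna12 shares 11.9% of its 31-base words with Amz1, so its value is uncertain. These regulators of receptor signalling thus moved in both directions.

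The 3 called effector enzymes of the same list were lowest in Egln1/Hif2aTie2Cre. Plcb4, a phospholipase C activated by Gq, was at 46.1 FPKM in Egln1Tie2Cre and 26.6 FPKM in Egln1/Hif2aTie2Cre, against 32.4 FPKM in floxed. Prkca, a protein kinase C isoform, was at 12.0 and 6.68 FPKM against 9.79 FPKM in floxed. Both fell in Egln1/Hif2aTie2Cre over Egln1Tie2Cre, by 0.77 for Plcb4 and by 0.76 for Prkca on the log2 scale. Prkce, another protein kinase C isoform, was at 6.34 and 4.10 FPKM against 7.61 FPKM in floxed and was the gene of this list that fell in Egln1/Hif2aTie2Cre over floxed (log2 ratio -0.76).

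On the nitric oxide side, Nos3 (ENSMUSG00000028978, chromosome 5, 24364810 to 24384474, plus strand) encodes the endothelial nitric oxide synthase. Its level was 18.0 FPKM in Egln1Tie2Cre and 9.26 FPKM in Egln1/Hif2aTie2Cre, against 10.001 FPKM in floxed. The Egln1Tie2Cre library was the high one and both others lay close together. Nos3 rose in Egln1Tie2Cre, 1.80-fold above floxed (log2 ratio 0.79), and fell in Egln1/Hif2aTie2Cre, 1.94-fold below Egln1Tie2Cre (log2 ratio -0.89). The library labelled Egln1/Hif2aTie2Cre was 1.08-fold below floxed (log2 ratio -0.10). Of the genes with a value in every library, Nos3 stood above 76.5% in Egln1Tie2Cre and 63.3% in Egln1/Hif2aTie2Cre, against 64.7% in floxed. Of its 31-base words, 25.1% occur in transcripts of other genes. They lie in Gm15587, an antisense gene model (18.7% of the words), and in Atg9b, a coding gene on the opposite strand whose end overlaps that of Nos3 (6.39%). Whether the counting used strand is not given in the sources used here, so reads of Nos3 and Gm15587 may not be told apart. No gene was listed by the authors under the name Gm15587. Atg9b itself was at 0.280 FPKM in Egln1Tie2Cre and 0.384 FPKM in Egln1/Hif2aTie2Cre, against 0.402 FPKM in floxed.

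Nos3 was set beside the 15 endothelial markers, since it is an endothelial gene and their levels differed between libraries. In Egln1Tie2Cre over floxed the markers had a median log2 ratio of 0.30, with 11 of 15 above 0 and 1 called higher. Nos3 had a larger ratio than 14 of them, and Eng, an endothelial co-receptor for TGF-beta family ligands, was the exception, at 0.83. The Nos3 ratio less the marker median was 0.48, under the call. In Egln1/Hif2aTie2Cre over Egln1Tie2Cre the marker median was -0.05, and 14 of the 15 markers had a higher ratio than Nos3. Eng was the exception there too, at -0.94. Eng was also the listed gene nearest to Nos3 by its pair of log2 ratios over floxed, with a distance of 0.04 among 148 genes searched, and Prkg1 came next at 0.14. That likeness rests on 3 libraries and describes them only.

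Cav1 (ENSMUSG00000007655, chromosome 6, 17306335 to 17341452, plus strand) encodes caveolin-1, which coats the membrane pits called caveolae and holds the endothelial synthase inactive there. Its level was 94.1 FPKM in Egln1Tie2Cre and 153 FPKM in Egln1/Hif2aTie2Cre, against 137 FPKM in floxed, so the Egln1Tie2Cre library was the low one. The log2 ratio of Egln1Tie2Cre over floxed was -0.54, a plain ratio of 1.46-fold, short of the call. Cav1 rose in Egln1/Hif2aTie2Cre over Egln1Tie2Cre (1.63-fold, log2 ratio 0.70) and was 1.12-fold above floxed there (log2 ratio 0.16). None of its 31-base words occur in other genes. In Egln1Tie2Cre over floxed all 15 endothelial markers had a larger ratio than Cav1, and Cav1 less the marker median was -0.84. The level of Cav1 per transcript length was 5.23 times that of Nos3 in Egln1Tie2Cre and 16.5 times in Egln1/Hif2aTie2Cre, against 13.7 times in floxed. Robo4, an endothelial guidance receptor, and Ptrf, a caveolar coat protein, were the listed genes nearest to Cav1, each at a distance of 0.10.

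Of the 9 other genes of caveolae, 0 were called in either comparison with floxed. In Egln1Tie2Cre over floxed 1 of 9 was above 0 and the median was -0.19, and in Egln1/Hif2aTie2Cre over floxed 7 of 9 were above 0 and the median was 0.13. Cav2, the partner of caveolin-1 in the coat, was at 19.6 FPKM in Egln1Tie2Cre and 38.7 FPKM in Egln1/Hif2aTie2Cre, against 26.5 FPKM in floxed. It was the only one of the 9 called in Egln1/Hif2aTie2Cre over Egln1Tie2Cre, where it rose (1.98-fold, log2 ratio 0.95). Ptrf was at 66.5 and 98.2 FPKM against 92.7 FPKM in floxed, with no call.

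**Figure D3:**
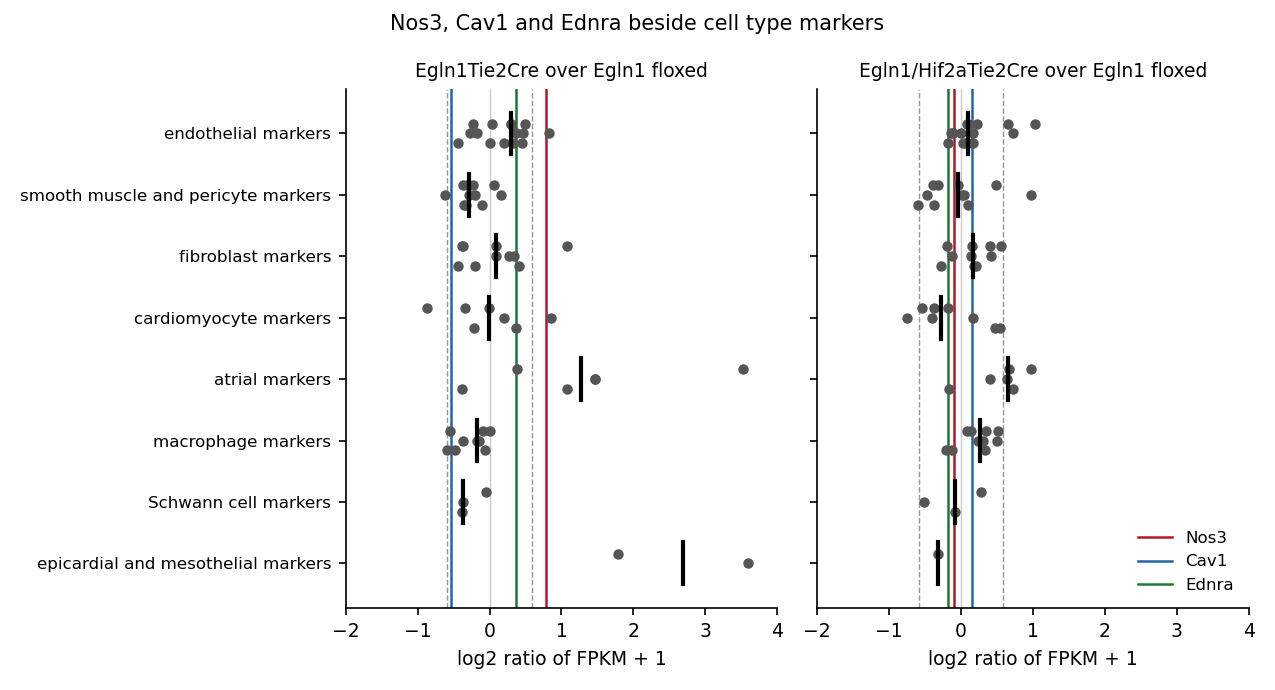
Log2 ratio of FPKM + 1 over the floxed library for the markers of 8 cell types (points, kept genes; black bars, list medians), with vertical lines at Nos3, Cav1 and Ednra and dashed lines at the 1.5-fold call. In Egln1Tie2Cre over floxed Nos3 lies to the right of 14 of 15 endothelial markers and Cav1 to the left of all 15, while the highest ratios are those of Krt19 and Nppa.

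Of 12 measured genes for the other nitric oxide synthases and the partners of Nos3, 4 rose and 2 fell in Egln1Tie2Cre over floxed (list median log2 ratio 0.32). For Egln1/Hif2aTie2Cre over floxed 4 rose and 0 fell (0.22), and in Egln1/Hif2aTie2Cre over Egln1Tie2Cre 2 rose and 2 fell (0.14). The shares of all genes called higher and lower in these comparisons were 9.46% and 8.73%, 4.42% and 3.28%, and 9.67% and 9.64%. Klf2, a shear-responsive transcription factor known to raise Nos3, was at 31.6 FPKM in Egln1Tie2Cre and 33.4 FPKM in Egln1/Hif2aTie2Cre, against 20.6 FPKM in floxed. Klf4, a related factor, was at 18.6 and 21.5 FPKM against 9.78 FPKM in floxed. Both rose over floxed in both libraries, with log2 ratios of 0.59 and 0.67 for Klf2 and 0.86 and 1.06 for Klf4. Akt1, a kinase that activates the endothelial synthase, was at 133 FPKM in Egln1Tie2Cre and 63.8 FPKM in Egln1/Hif2aTie2Cre, against 87.1 FPKM in floxed. It followed the order of Nos3, rising in Egln1Tie2Cre over floxed (log2 ratio 0.61) and falling in Egln1/Hif2aTie2Cre over Egln1Tie2Cre (log2 ratio -1.05). Nostrin, which moves the synthase from the membrane, was at 8.64 and 6.55 FPKM against 4.23 FPKM in floxed and rose in Egln1Tie2Cre (log2 ratio 0.88). Nosip, another protein that binds the synthase, was at 41.4 and 26.4 FPKM against 28.2 FPKM in floxed and fell in Egln1/Hif2aTie2Cre over Egln1Tie2Cre (log2 ratio -0.63). Dynll1, a light chain that binds the neuronal synthase, was at 41.1 and 53.5 FPKM against 29.4 FPKM in floxed and rose in Egln1/Hif2aTie2Cre (log2 ratio 0.84).

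Nos2, the inducible synthase known from macrophages, was at 0.656 FPKM in Egln1Tie2Cre and 3.30 FPKM in Egln1/Hif2aTie2Cre, against 3.20 FPKM in floxed. It fell in Egln1Tie2Cre over floxed (log2 ratio -1.34) and rose in Egln1/Hif2aTie2Cre over Egln1Tie2Cre (log2 ratio 1.38). The level of Nos3 was thus 27.4 times that of Nos2 in Egln1Tie2Cre and 2.81 times in Egln1/Hif2aTie2Cre, against 3.13 times in floxed. Macrophage markers were also lowest in Egln1Tie2Cre by their sum, with 1 of 9 called lower there than in floxed, and their part in the Nos2 level was not tested. Hsp90aa1, the chaperone that binds the endothelial synthase, was at 26.1 FPKM in Egln1Tie2Cre and 138 FPKM in Egln1/Hif2aTie2Cre, against 53.2 FPKM in floxed. It fell in Egln1Tie2Cre (log2 ratio -0.998 over floxed) and rose in Egln1/Hif2aTie2Cre (1.36 over floxed and 2.35 over Egln1Tie2Cre). It shares 51.5% of its 31-base words with other genes, so its value is uncertain.

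Ddah1 (ENSMUSG00000028194, chromosome 3, 145758675 to 145894277, plus strand) encodes the enzyme that degrades asymmetric dimethylarginine, an inhibitor of nitric oxide synthases. It was at 2.81 FPKM in Egln1Tie2Cre and 2.92 FPKM in Egln1/Hif2aTie2Cre, against 2.54 FPKM in floxed, with log2 ratios of 0.11 and 0.15 over floxed. The level was low and similar in all 3 libraries. Its relative Ddah2 was the more abundant, at 9.55 times the level of Ddah1 in Egln1Tie2Cre and 7.19 times in Egln1/Hif2aTie2Cre, against 7.88 times in floxed. Of the 5 measured genes of dimethylarginine metabolism, 1 rose and 0 fell in Egln1Tie2Cre over floxed (median 0.41), 0 were called in Egln1/Hif2aTie2Cre over floxed (median 0.05), and 2 fell in Egln1/Hif2aTie2Cre over Egln1Tie2Cre (median -0.36). Prmt1, the main enzyme that forms asymmetric dimethylarginine, was at 74.3 and 48.8 FPKM against 47.2 FPKM in floxed. It rose in Egln1Tie2Cre over floxed (log2 ratio 0.64) and fell in Egln1/Hif2aTie2Cre over Egln1Tie2Cre (log2 ratio -0.60). Carm1, a related methyltransferase that shares 19.1% of its 31-base words with other genes, was at 17.4 and 9.99 FPKM against 12.1 FPKM in floxed and fell in the last comparison (log2 ratio -0.74).

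The genes that supply arginine and the cofactor of the synthase were nearly all without a call. Of 8 kept, 0 rose and 1 fell in Egln1Tie2Cre over floxed, 0 were called in Egln1/Hif2aTie2Cre over floxed, and 1 rose and 0 fell in Egln1/Hif2aTie2Cre over Egln1Tie2Cre. The list medians were -0.14, 0.19 and 0.30. The called gene was Ass1, which recycles citrulline towards arginine, at 0.154 FPKM in Egln1Tie2Cre and 2.92 FPKM in Egln1/Hif2aTie2Cre, against 2.42 FPKM in floxed. Its log2 ratios were -1.57 in Egln1Tie2Cre over floxed and 1.77 in Egln1/Hif2aTie2Cre over Egln1Tie2Cre. Ass1 shares 43.1% of its 31-base words with Gm5424, so this value is uncertain.

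The subunits of the nitric oxide receptor lay close together in all libraries. Gucy1a3 (ENSMUSG00000033910, chromosome 3, 82092427 to 82145789, minus strand, now named Gucy1a1), the alpha subunit of soluble guanylate cyclase, was at 5.02 FPKM in Egln1Tie2Cre and 5.60 FPKM in Egln1/Hif2aTie2Cre, against 5.64 FPKM in floxed. Gucy1b3 (ENSMUSG00000028005, chromosome 3, 82032006 to 82074689, minus strand, now named Gucy1b1), the haem-binding beta subunit, was at 7.76 and 7.62 FPKM against 7.68 FPKM in floxed. The log2 ratios over floxed were -0.14 and -0.01 for Gucy1a3, and 0.01 and -0.01 for Gucy1b3. The genes lie beside each other on chromosome 3, and the level of Gucy1b3 was 1.55 times that of Gucy1a3 in Egln1Tie2Cre and 1.36 times in Egln1/Hif2aTie2Cre, against 1.36 times in floxed.

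Downstream of the cyclase, 5 genes of cGMP signalling were kept, and 1 rose in Egln1Tie2Cre over floxed, 0 were called in Egln1/Hif2aTie2Cre over floxed and 1 fell in Egln1/Hif2aTie2Cre over Egln1Tie2Cre. The medians were 0.18, 0.01 and 0.21. The called gene was Prkg1, the cGMP-dependent kinase of smooth muscle, at 4.03 FPKM in Egln1Tie2Cre and 2.00 FPKM in Egln1/Hif2aTie2Cre, against 2.22 FPKM in floxed. It shared the order of Nos3, with log2 ratios of 0.64 in Egln1Tie2Cre over floxed and -0.74 in Egln1/Hif2aTie2Cre over Egln1Tie2Cre. The phosphodiesterases, which break down cyclic nucleotides, had 0 of 5 kept genes called in Egln1Tie2Cre over floxed (median -0.01). Of 6 kept, 0 rose and 1 fell in Egln1/Hif2aTie2Cre over floxed (median -0.26), and in Egln1/Hif2aTie2Cre over Egln1Tie2Cre 1 rose and 2 fell (median -0.51). Pde3a, a cGMP-inhibited enzyme that cleaves cAMP in the heart, was at 9.73 and 4.98 FPKM against 9.93 FPKM in floxed and fell in Egln1/Hif2aTie2Cre over either other library (log2 ratios -0.87 over floxed and -0.84 over Egln1Tie2Cre). Pde9a, which is specific for cGMP, was at 4.25 and 2.26 FPKM against 2.70 FPKM in floxed and fell in Egln1/Hif2aTie2Cre over Egln1Tie2Cre (log2 ratio -0.69). Pde2a was at 11.7 and 21.3 FPKM against 17.4 FPKM in floxed and rose in that comparison (log2 ratio 0.81), but its gene ID belongs to the model Gm45837 in GENCODE M21, which shares 98.5% of its 31-base words with other genes.

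**Figure D4:**
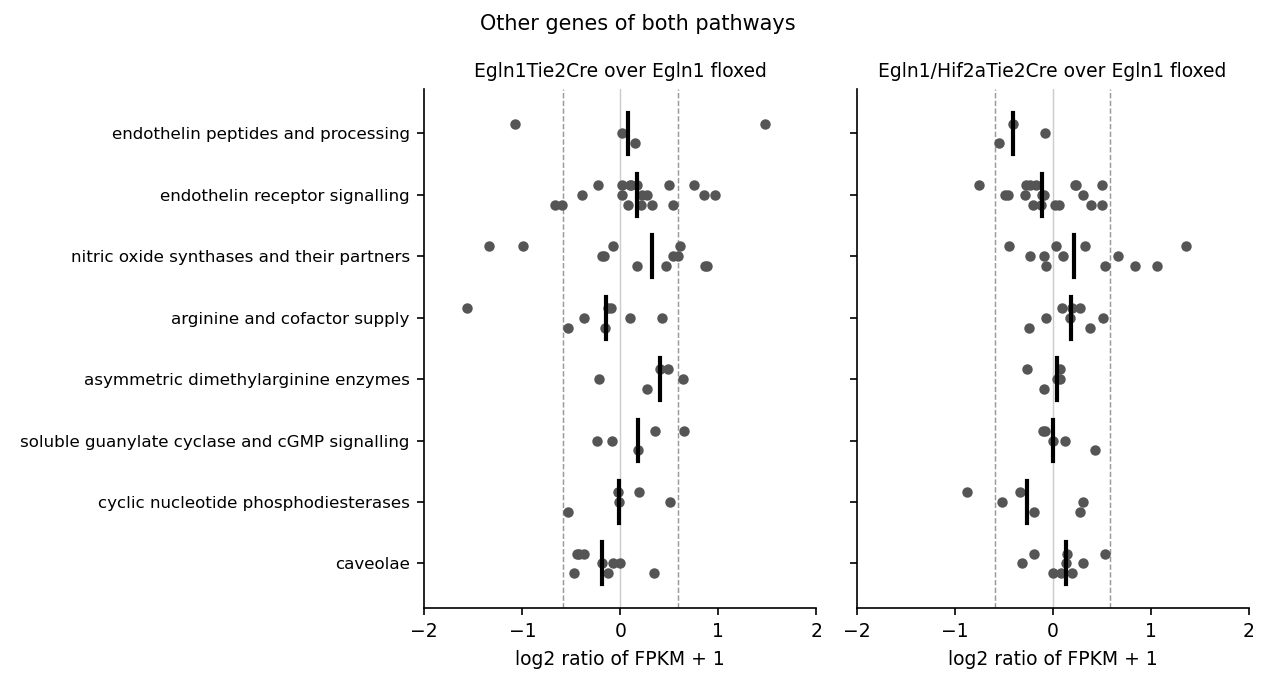
Log2 ratio of FPKM + 1 over the floxed library for the other genes of both pathways in 8 lists (points, kept genes; black bars, list medians; dashed lines, the 1.5-fold call). The synthase partners hold 4 of 12 genes past the call on the high side in each panel. Of all genes, 9.46% (Egln1Tie2Cre) and 4.42% (Egln1/Hif2aTie2Cre) are past it on that side. No caveolar gene passes the call in either panel.

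Over all 8 lists together, 76 of 86 genes had a value and 67 were kept in each comparison. In Egln1Tie2Cre over floxed 10 rose and 6 fell (14.9% and 8.96%, median 0.08), beside the 9.46% and 8.73% of all genes given above. For Egln1/Hif2aTie2Cre over floxed 4 rose and 2 fell (5.97% and 2.99%, median 0.03), beside 4.42% and 3.28%. For Egln1/Hif2aTie2Cre over Egln1Tie2Cre 6 rose and 12 fell (8.96% and 17.9%, median -0.01), beside 9.67% and 9.64%. The lists were written with results of these data known and hold genes that share cells and functions, so these shares are a description.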

How the data were processed

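RNA of left ventricles was sequenced on an Illumina instrument, per the labels' protocols. The submitters' processing notes name TopHat2 and Cuffdiff; their versions, the build and the annotation release are left unstated there. The deposited tables, 1 for each of 3 pairs of libraries, give FPKM per library as the authors' estimates, and the q-value of the authors' comparison of both libraries, per the file headers. Read numbers and depth are unknown, so no counting interval is given. Fold sizes are plain FPKM ratios; calls use log2 of FPKM + 1 (pseudocount 1), at 1.5-fold, where FPKM averaged at least 1 over both libraries. No p-value was computed, since no genotype has a second library.

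Positions are of GRCm38 from GENCODE M21, matched by gene ID for all 10 genes, and are not the authors' coordinates. Shared sequence is the share of a gene's 31-base words found in other genes' transcripts on either strand. Likeness is the Euclidean distance between pairs of log2 ratios over floxed. All 10 genes are named, with the pathway genes called in any comparison (26 of 76), the targeted genes and the 2 nearest listed genes of each called member. Other genes in the text were named after their values were seen. The members and lists were chosen with earlier results of these data known. Python 3.11.15, numpy 2.4.6, pandas 2.3.3 and matplotlib 3.10.9 were used, and the scripts were tested on simulated data. Alternatives were a 2-fold call, a pseudocount of 0.1, omitting the filter, a minimum of 5 for mean FPKM, centring on the median of all genes, subtraction of the endothelial marker median, and, added after seeing the data, coding genes with under 10% shared words and marker sums without their leading genes.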

Additional observations from a re-analysis of the deposited data

How the results depend on the processing

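The counts of the 10 genes called moved by a gene or so under several settings. With a pseudocount of 0.1, Edn1 and Ednrb were called higher in Egln1/Hif2aTie2Cre over floxed (2 genes), beside 6.40% of all genes kept. In Egln1/Hif2aTie2Cre over Egln1Tie2Cre 2 genes were called lower, Ednra joining Nos3, beside 12.1% of all genes. There 3 were called higher, Edn1 joining Ece2 and Cav1, beside 12.8%. With mean FPKM of 5 or more, 0 were called lower in Egln1Tie2Cre over floxed, beside 8.54% of all genes kept. In Egln1/Hif2aTie2Cre over Egln1Tie2Cre 1, Cav1, was called higher, beside 9.70%. There the median log2 ratio of the members kept was -0.0236, since Ece2 and other low genes are left out. At 2-fold, 0 were called higher and 0 lower in Egln1Tie2Cre over floxed, beside 3.93% and 3.84% of all genes. In Egln1/Hif2aTie2Cre over Egln1Tie2Cre 1 was called higher, Ece2, and 0 lower, beside 4.31% and 4.08%. Coding genes without a copy were a setting chosen after seeing the data. Among them the counts were 0 and 0 in Egln1Tie2Cre over floxed, beside 7.16% higher and 5.16% lower of all such genes. In Egln1/Hif2aTie2Cre over Egln1Tie2Cre they were 1 (Cav1) and 0, beside 5.39% and 7.55%. Nos3 and Ece2 are left out there because they themselves share sequence. No filter and centring on all genes left all these counts as they were. Subtracting the endothelial marker median turned 6 of the 30 log2 ratios of the 10 genes round, none of them past the call. These were, for Egln1Tie2Cre over floxed, Edn1 (-0.26), Ece1 (-0.22), Ednrb (-0.22), Ddah1 (-0.19) and Gucy1b3 (-0.29), and for Egln1/Hif2aTie2Cre over Egln1Tie2Cre Gucy1b3 (0.02). Centring on all genes turned Gucy1b3 round in Egln1Tie2Cre over floxed (-0.00). Subtracting the marker median also ended the Nos3 call in Egln1Tie2Cre over floxed (0.48) and brought Cav1 past it (-0.84). The cause of these shifts was otherwise not tested. No paired analysis was possible because each genotype has 1 library, which also leaves no library that could be left out. The unknown depth limits how far low levels such as those of Edn1 and Ece2 can be read.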
